A study of Homo sapiens with 21 samples.

Results

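The nonsense-mediated decay factors described here are 8 genes chosen by name: UPF1, UPF2, UPF3A, UPF3B, SMG5, SMG6, SMG8 and SMG9. They are 8 of the 37637 features in the count table, and all 8 were among the 17951 features that passed the filter on low counts and were tested. Their messages were measured by RNA-seq in HepG2 cells, a human hepatocellular carcinoma line, after 24 h in serum-free medium. Caffeine was present at 0.01, 0.1, 1, 10, 100 or 1000 µM, or absent in the control, with 3 biological replicates in each of the 7 groups and 21 libraries in all.

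Nonsense-mediated decay removes messages on which translation stops too early, and it also sets the level of many normal transcripts. The helicase UPF1 acts at the stalled terminating ribosome, and UPF2 and the paralogs UPF3A and UPF3B connect it to exon junction complexes left downstream of the stop codon. The kinase SMG1, held in check by its partners SMG8 and SMG9, phosphorylates UPF1, which then recruits the endonuclease SMG6 and the adaptor SMG5. SMG1 belongs to the phosphatidylinositol 3-kinase-related kinases, a family that caffeine is known to inhibit at high concentration, and several decay factor messages are known to be decay targets themselves.

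Libraries held 23502519 to 44815552 counts, and a single decay factor had between 439 counts (UPF3B) and 9953 counts (SMG5) in a library. All 7 hepatocyte markers were present in every library, but their levels moved too. At 10 µM 2 were higher and 2 lower (0 and 0 with the library set, described next, as a term), at 100 µM 2 and 3 (1 and 3), and at 1000 µM 2 and 3 (2 and 4). At 1000 µM ALB was lower by −0.98, AFP by −1.40 and SERPINA1 by −0.81 on the log2 scale, and APOB and TTR were higher. The shares of all features called at these doses stand with the factors' counts below. Of the markers of other cell types, 5 of 7 had 10 or fewer counts in each library, the other two being CD68 and LYVE1. The summed level of these 7, nearly all of it CD68, was 38.9 to 54.3 CPM (counts scaled to the library total) in control and 47.1 to 51.6 in the 10 µM group. The 100 µM group had 44.6 to 68.7 and the 1000 µM group 19.5 to 44.6, and the part of either marker list in the results below was not tested. The labels give no batch, but the libraries fell into 3 sets by their 13 mitochondrial messages, at a mean silhouette of 0.571. The 11 libraries of set A, with 9.95% to 14.2% mitochondrial reads, are every library from control through 0.1 µM plus the first 2 of the 1 µM group. In the 7 libraries of set B the mitochondrial share was 4.72% to 4.94%: they are 1 µM replicate 3, the whole 10 µM group, 100 µM replicate 2, and 1000 µM replicates 1 and 2. The remaining 3 libraries, 100 µM replicates 1 and 3 with 1000 µM replicate 3, form set C, whose mitochondrial share was 11.8% to 12.8%. No control library lay in set B or C, so the set and the dose cannot be told apart from 10 µM upward except through 1 µM, where the single set B library had 2 set A partners. Calls against control are therefore also given with the set as a term in the fit, and steps within a set are given where libraries allow. Where a set holds a single library of a dose, that library is assumed to vary as the other groups do, and its own deviation and the dose cannot be told apart.

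Levels below are CPM on TMM-scaled library sizes. A gene was called changed where edgeR's quasi-likelihood test gave a Benjamini-Hochberg adjusted p under 0.05 over all 17951 features. Less RNA of a gene per cell and fewer cells that express it cannot be told apart in such bulk samples.

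At 100 µM the largest movements were in 3 of the 8 factors. The mean of UPF2 fell to 0.49 of control at 100 µM and 0.518 at 1000 µM, that of UPF3B to 0.414 and 0.50, and that of SMG8 rose to 1.53 and 1.47 times control. SMG6 and SMG9 were lower at these doses, by less than SMG8 rose at 100 µM. At 1000 µM SMG6 moved about as far as SMG8, at log2 −0.54 and 0.55 (−0.48 and 0.46 with the library set as a term). UPF3A fell and then partly returned, and UPF1 and SMG5 showed no clear course. Called factors numbered 0 of 8 at 0.01 µM (0.0279% of all features), 0 of 8 at 0.1 µM (0% of all features) and 0 of 8 at 1 µM (0.106% of all features) with edgeR. An unadjusted edgeR p under 0.05 was reached by 1, 1 and 3 of the 8 at these doses, against 15%, 9.48% and 15.7% of all features. DESeq2 called 0, 0 and 1, against 2.16%, 0.295% and 2.28%. With the set as a term 0 of 8 were called at 0.01 µM (3.02% of all features) and 0 of 8 at 0.1 µM (0.0223%). In the fit within sets 0 of 8 were called at 0.01 µM (5.9% of all features) and 0 of 8 at 0.1 µM (0.546%). There UPF2 stood at −0.21 at 0.01 µM (edgeR adjusted p = 0.0545). Within set A, 2 libraries at 1 µM against the 3 controls, 1 of 8 was called, against 2.1% of all features: UPF2 was lower by −0.28 ± 0.073 (edgeR adjusted p = 0.0481). With the set as a term over all libraries the estimate at 1 µM was also −0.28 but was not called (edgeR adjusted p = 0.0645), and 0 of 8 were, against 0.629% of all features. At 10 µM 4 of 8 were called, against 14.8% of all features. SMG8 was higher (7.27% of features were) and UPF2, UPF3A and UPF3B were lower (7.49% of features were). At 100 µM 7 of 8 were called, against 46.6% of all features, with UPF1 and SMG8 higher (23.6% of features) and UPF2, UPF3A, UPF3B, SMG6 and SMG9 lower (22.9% of features). At 1000 µM 5 of 8 were called, against 57.6% of all features, a share of the factors close to the background. SMG8 was higher (28.5% of features), and UPF2, UPF3B, SMG6 and SMG9 were lower (29.1% of features). All 8 factors have a mean of at least 5 CPM. In a fit of only such features 22.5%, 55.5% and 66.8% were called at 10, 100 and 1000 µM, and 86.3% jointly over all doses. The median log2 fold change of the 8 at 1000 µM was −0.32, beside −0.0069 over all features tested, and −0.16 beside −0.03 with the library set as a term. Adding the library set as a term brought the counts to 0 at 10 µM (0.0279% of all features), 3 at 100 µM (17.3%) and 4 at 1000 µM (38%). By direction, that fit called 9.14% of all features higher and 8.21% lower at 100 µM, and 18.2% higher and 19.8% lower at 1000 µM.

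**Figure D1:**
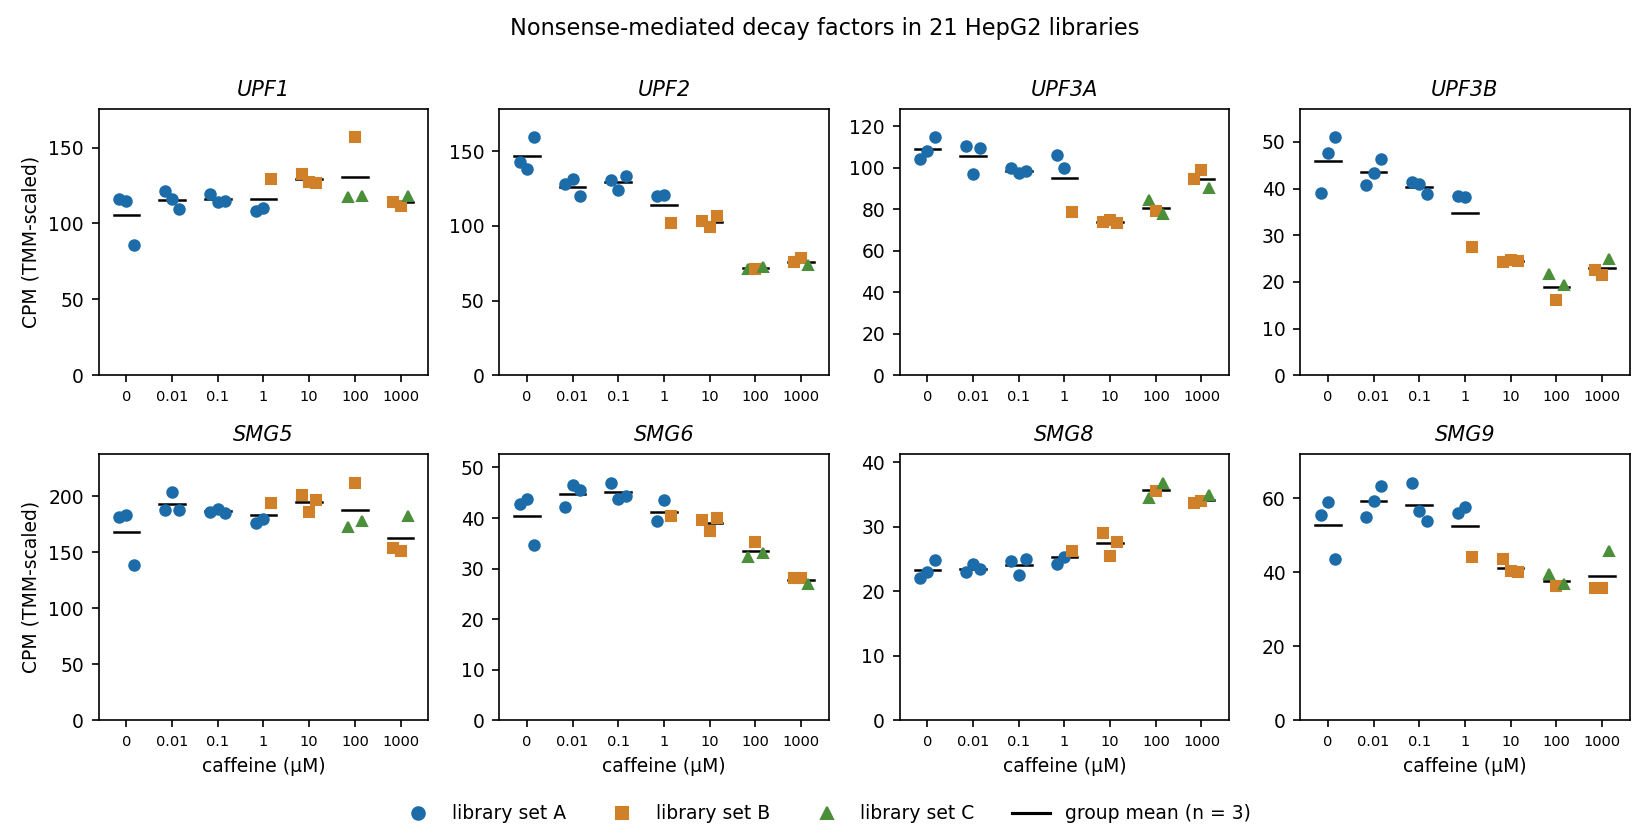
CPM of the 8 decay factors (vertical axes, starting at 0) against caffeine dose in µM (horizontal axes), 1 point per library with the shape and colour giving its library set and a line at each group mean of 3. UPF2 falls from a mean of 147 CPM to 71.8 CPM at 100 µM, UPF3B from 45.9 to 19.0 CPM, and SMG8 rises from 23.4 to 35.7 CPM.

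Gene positions below are on GRCh38 from GENCODE 29. UPF2 (ENSG00000151461.20, chr10:11920022-12043170, minus strand), the scaffold between UPF1 and the UPF3 proteins, fell at every one of the upper 3 doses. Its control libraries stood at 143, 138 and 159 CPM. The libraries at 10 µM stood at 103, 99.3 and 107 CPM, those at 100 µM at 71.4, 71.4 and 72.7 CPM, and those at 1000 µM at 75.6, 78.3 and 73.8 CPM. Every treated library at all 6 doses lay below the lowest control, with the 0.01 to 1 µM libraries at 102 to 134 CPM. The lowest of these, the set B library at 1 µM, lay inside the range of the 10 µM group. The log2 fold change was −1.03 ± 0.076 (SE) at 100 µM (edgeR adjusted p = 4.27e-09) and −0.95 ± 0.076 at 1000 µM (adjusted p = 3.61e-09), with n = 3 in each group. With the set as a term these were −0.77 and −0.70 (edgeR adjusted p = 0.000222 and 0.000102), and both calls held. At 10 µM the change of −0.51 ± 0.076 (edgeR adjusted p = 0.00116) became −0.27 with an adjusted p of 0.987. UPF2 was the one factor of the 8 whose slope on dose rank was called with the set as a term, at −0.12 log2 units per step (edgeR adjusted p = 0.0361). Without that term the slope was called for 6 of 8, against 55.3% of all features, and with it for 1 of 8, against 4.27%.

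UPF3B (ENSG00000125351.11, chrX:119805311-119852998, minus strand), the X-linked UPF3 paralog and the more active of the pair in decay, had the lowest level relative to control. The control libraries stood at 39.1, 47.6 and 51.0 CPM. Those at 10 µM stood at 24.2, 24.7 and 24.4 CPM, those at 100 µM at 21.6, 16.03 and 19.4 CPM, and those at 1000 µM at 22.5, 21.4 and 24.9 CPM. From 1 µM upward each library lay below all 3 controls, and at 1 µM the set B library, at 27.5 CPM, lay below its set A partners at 38.4 and 38.3 CPM. The log2 fold change was −1.27 ± 0.13 at 100 µM (edgeR adjusted p = 2.42e-07) and −0.999 ± 0.13 at 1000 µM (adjusted p = 1.93e-06). With the set as a term it was −0.98 and −0.61 (edgeR adjusted p = 0.000439 and 0.00506). At 1 µM the single set B library differed from its set A pair by −0.48 ± 0.13 (edgeR adjusted p = 0.0296), and UPF3B and UPF3A were the 2 of 8 factors called there, against 8.18% of all features. That test has 1 library in an arm and takes its spread from the other groups. The fall of −0.91 at 10 µM, where every library was in set B, became −0.43 with the set term (edgeR adjusted p = 0.957). From 1 to 10 µM within set B, with a single library at 1 µM, 0 of 8 factors were called, against 0.0167% of all features, and UPF3B differed by −0.17, UPF3A by −0.09 and UPF2 by 0.015.

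UPF3A (ENSG00000169062.15, chr13:114281584-114305817, plus strand), the second paralog and on most targets the weaker activator, fell at 10 µM and stood higher again at 1000 µM. Its controls were 104, 108 and 115 CPM. The libraries at 10 µM stood at 73.7, 74.6 and 73.3 CPM, those at 100 µM at 84.5, 79.1 and 77.8 CPM, and those at 1000 µM at 94.7, 98.7 and 90.0 CPM. All 9 of these libraries lay below the controls, and the 3 groups did not overlap each other. Its log2 fold changes were −0.56 ± 0.089 at 10 µM (edgeR adjusted p = 0.00176), −0.44 ± 0.089 at 100 µM (adjusted p = 0.000564) and −0.20 ± 0.089 at 1000 µM (adjusted p = 0.057). At 1 µM the set B library stood at 78.6 CPM and the set A libraries at 106 and 99.6 CPM, a log2 difference of −0.39 ± 0.098 (edgeR adjusted p = 0.0204). With the set term none of the 3 dose differences was called, and the estimate at 1000 µM was 0.19 (edgeR adjusted p = 0.218). The 1000 µM libraries were higher than those at 10 µM by 0.36 ± 0.089 (edgeR adjusted p = 0.00239), and within set B alone by 0.39 ± 0.072 (adjusted p = 0.000107).

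The ratio of the UPF3 paralogs was higher at the upper doses, as UPF3B was lowered more than UPF3A. The ratio of UPF3A to UPF3B counts was 2.66, 2.27 and 2.25 in the control libraries, with a mean of 2.39 ± 0.234 (SD, n = 3). It was 3.04, 3.02 and 3.01 at 10 µM, 3.91, 4.93 and 4.02 at 100 µM, and 4.20, 4.60 and 3.61 at 1000 µM. Ratios at these 3 doses lay above every control, and an exact 2-sided permutation test gave p = 0.1 for each, the smallest p that 3 libraries against 3 allow. At 1 µM the ratio in the set B library, 2.86, was close to the 2.76 and 2.60 of its set A partners, although both paralogs were lower there. At 0.01 and 0.1 µM the ratio ran from 2.24 to 2.71 and overlapped the controls. The paralogs share sequence, and how reads that fit both were counted is not given in the sources used here.

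**Figure D2:**
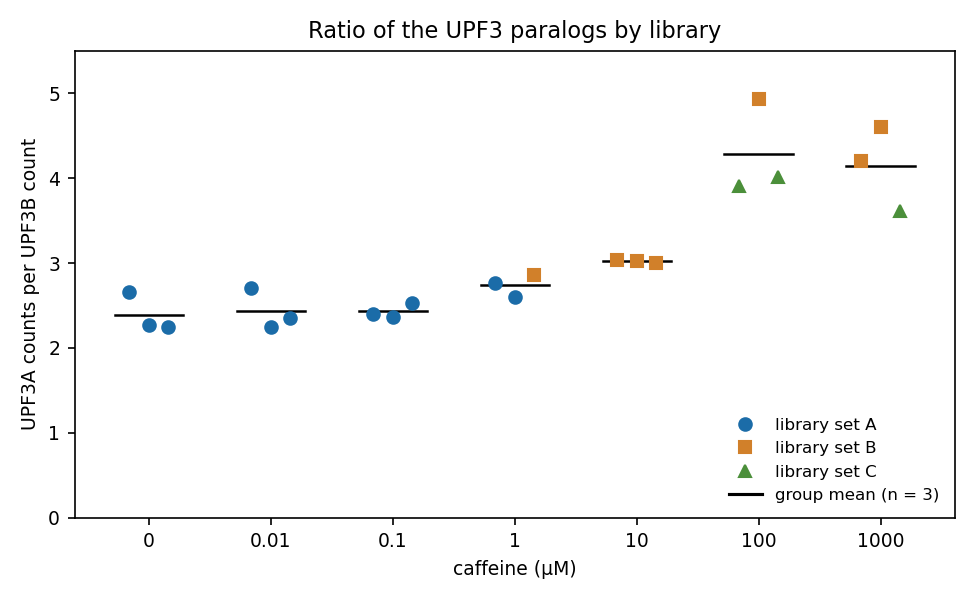
Ratio of UPF3A to UPF3B counts in each library (vertical axis, no unit) against caffeine dose in µM, with library sets by shape and colour and lines at the group means of 3. The mean ratio is 2.39 in control, 3.02 at 10 µM, 4.29 at 100 µM and 4.14 at 1000 µM, and the set B library at 1 µM sits beside the set A libraries of that dose.

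The promoters of the factors with the largest falls, and of UPF3A for comparison with its paralog, are shown because all 3 messages were called lower at 10 µM. None of these calls held with the library set as a term. They are RefSeq promoter windows on GRCh38.p14, printed 5′ to 3′ on the gene's strand. Capitals mark CTCGCGAG, and CCAAT on either strand (ATTGG on the reverse). UPF3B is chrX:119852999-119853213 on the minus strand, 215 bases, since the bases nearest its RefSeq start lie inside the GENCODE gene model and are not printed. UPF3A is chr13:114281351-114281600 on the plus strand, its last bases, the marked CTCGCGAG among them, also lying inside the GENCODE gene model, and UPF2 is chr10:12043171-12043420 on the minus strand.
UPF3B: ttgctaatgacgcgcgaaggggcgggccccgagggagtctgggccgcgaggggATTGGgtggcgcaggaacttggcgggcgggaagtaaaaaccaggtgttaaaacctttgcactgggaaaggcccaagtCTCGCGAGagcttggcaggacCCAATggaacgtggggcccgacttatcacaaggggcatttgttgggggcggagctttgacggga
UPF3A: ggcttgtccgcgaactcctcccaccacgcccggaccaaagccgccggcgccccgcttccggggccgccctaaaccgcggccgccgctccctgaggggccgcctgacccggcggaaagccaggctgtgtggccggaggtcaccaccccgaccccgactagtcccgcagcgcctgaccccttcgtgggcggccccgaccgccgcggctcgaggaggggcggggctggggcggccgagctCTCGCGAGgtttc
UPF2: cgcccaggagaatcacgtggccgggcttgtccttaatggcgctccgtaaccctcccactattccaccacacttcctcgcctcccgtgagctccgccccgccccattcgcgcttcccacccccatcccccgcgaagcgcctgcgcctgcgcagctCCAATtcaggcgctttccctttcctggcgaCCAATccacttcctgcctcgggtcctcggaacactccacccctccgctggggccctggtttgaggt
Of 5 motifs searched on both strands over the 250 bases before each start, CTCGCGAG, a palindrome and the core of an element known to be bound by the factor BANP, was in 0.874% of the 35116 windows searched. It lay at −120 in UPF3B and at −13 in the UPF3A window shown, with the base before the RefSeq start as −1, and another UPF3A window held it at −96 and −37. CCAAT was in 32.0% of windows and occurred at −197 and −99 in UPF3B and at −96 and −66 in UPF2, but also at −188 in UPF1 and in both windows of SMG5, at −226 and −175. GGGCGG was in 42.6% of windows and occurred in windows of UPF1, UPF2, UPF3A, UPF3B, SMG5 and SMG6. CACGTG was in 6.34% and occurred in UPF2 at −237 and in a window of SMG6 at −46. TGACGTCA was in 1.65% of windows and in no window of the factors that had an entry. These are matches of letters only. UPF3A had 3 windows and UPF2 had 2, of which the one nearest the GENCODE start is shown, and SMG8 had no entry.

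UPF1 (ENSG00000005007.12, chr19:18831938-18868236, plus strand), the helicase at the core of the pathway, was called against control at 100 µM alone. Its controls were 116, 115 and 85.7 CPM, and the libraries at 100 µM were 118, 157 and 118 CPM. Replicate 3 of control was low and replicate 2 at 100 µM, the set B library of that dose, was high. The log2 fold change of 0.31 ± 0.11 at 100 µM (edgeR adjusted p = 0.0306) became 0.20 without control replicate 3 (adjusted p = 0.139) and 0.16 without 100 µM replicate 2 (adjusted p = 0.238). It was 0.17 with the set as a term (edgeR adjusted p = 0.591), and the call was lost. At 1000 µM UPF1 stood at 114, 111 and 118 CPM, inside the control range but for 1 library above it, with a log2 fold change of 0.12 ± 0.11 (edgeR adjusted p = 0.393), or −0.07 with the set term (adjusted p = 0.807). At 10 µM all 3 libraries, at 133, 128 and 127 CPM, lay above the controls, but the difference of 0.29 ± 0.11 was not called (edgeR adjusted p = 0.0897). UPF1 was not called over all doses jointly (edgeR adjusted p = 0.178).

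SMG8 (ENSG00000167447.12, chr17:59209400-59215247, plus strand), which together with SMG9 restrains the SMG1 kinase, was the one factor of the 8 that was higher at all 3 upper doses by the test. Its controls were 22.1, 23.1 and 24.9 CPM. The libraries at 100 µM stood at 34.5, 35.6 and 36.9 CPM and those at 1000 µM at 33.7, 34.1 and 34.9 CPM, all above every library at 10 µM, which stood at 29.1, 25.5 and 27.7 CPM. Against control SMG8 differed by 0.61 ± 0.076 at 100 µM (edgeR adjusted p = 2.64e-06) and 0.55 ± 0.076 at 1000 µM (adjusted p = 4.19e-06). With the set as a term both were still called, at 0.51 and 0.46 (edgeR adjusted p = 0.0159 and 0.0107). The rise at 10 µM, 0.23 ± 0.075 (edgeR adjusted p = 0.0446), lost its call with the set term, with a replicate block, and without several single libraries, among them control replicate 1 (adjusted p = 0.144) and 10 µM replicate 1 (adjusted p = 0.178). The estimate ran from 0.19 to 0.29 with each library left out in turn, and was 0.15 with the set term. Between sets at 1 µM SMG8 differed by 0.08 ± 0.11 (edgeR adjusted p = 0.697).

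SMG9 (ENSG00000105771.14, chr19:43727992-43754990, minus strand), the other SMG1 partner, moved the opposite way. Its controls were 55.4, 59.0 and 43.4 CPM. The libraries at 100 µM were 39.5, 36.3 and 36.9 CPM and those at 1000 µM were 35.7, 35.8 and 45.8 CPM. Those at 100 µM lay below all controls, while at 1000 µM the set C library, replicate 3, lay above the lowest control. SMG9 differed from control by −0.49 ± 0.13 at 100 µM (edgeR adjusted p = 0.00369) and −0.43 ± 0.13 at 1000 µM (adjusted p = 0.00618). With the set as a term these became −0.26 and −0.14 (edgeR adjusted p = 0.404 and 0.582), and neither was called. At 1 µM the set B library stood at 44.0 CPM beside 55.9 and 57.7 CPM in set A, a log2 difference of −0.37 ± 0.14 that was not called (edgeR adjusted p = 0.123).

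SMG6 (ENSG00000070366.14, chr17:2059839-2303771, minus strand), the endonuclease that cuts the target message near the stop codon, was lowest at 1000 µM. Its controls were 42.8, 43.9 and 34.7 CPM, and the libraries at 1000 µM were 28.1, 28.2 and 27.0 CPM, all below the controls and below the 32.3, 35.3 and 33.0 CPM at 100 µM. The log2 fold change at 1000 µM was −0.54 ± 0.086 (edgeR adjusted p = 2.35e-05), and −0.48 with the set as a term (adjusted p = 0.0159). At 100 µM it was −0.27 ± 0.086 (edgeR adjusted p = 0.0141), a call lost without control replicate 1 (adjusted p = 0.0649), control replicate 2 (adjusted p = 0.0808) or 100 µM replicate 1 (adjusted p = 0.0574), and with the set term (adjusted p = 0.495). With each library left out in turn this fold change ran from −0.35 to −0.21, and with the set term it was −0.18. At 10 µM the libraries stood at 39.6, 37.4 and 40.1 CPM, within the control range.

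SMG5 (ENSG00000198952.8, chr1:156249224-156282825, minus strand), the adaptor that brings decapping and deadenylation enzymes to phosphorylated UPF1, did not differ from control by the test at any dose. Its controls were 181, 183 and 139 CPM and the libraries at 1000 µM were 153, 151 and 183 CPM. The control and 1000 µM groups overlap, and in each a single library stands apart, control replicate 3 on the low side and the set C library of 1000 µM on the high side. The log2 fold change at 1000 µM was −0.05 ± 0.10 (edgeR adjusted p = 0.723), and −0.17 with the set term (adjusted p = 0.5). Control replicate 3 was also the lowest control for UPF1, SMG6 and SMG9, and the highest for UPF2, UPF3A, UPF3B and SMG8.

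Differences among the upper doses do not use the control levels, although the control libraries add to the estimate of the spread. Between 1000 and 10 µM 5 of 8 factors were called, against 52.1% of all features: UPF3A and SMG8 were higher, and UPF2, SMG5 and SMG6 were lower. Within set B, between 2 libraries at 1000 µM and 3 at 10 µM, the same 5 factors were called in the same directions, against 60.1% of all features. There the log2 differences were −0.42 ± 0.073 for UPF2 (edgeR adjusted p = 6.06e-05), −0.47 ± 0.093 for SMG6 (adjusted p = 0.000235) and −0.35 ± 0.092 for SMG5 (adjusted p = 0.00266). SMG8 was higher by 0.31 ± 0.081 within set B (edgeR adjusted p = 0.00298). UPF3B, among the most lowered against control, differed by −0.15 ± 0.098 within set B (edgeR adjusted p = 0.194), and SMG9 by −0.21 ± 0.11 (adjusted p = 0.11). Between 10 and 100 µM within set B, with a single library at 100 µM, 3 of 8 were called, against 23.9% of all features. In that step UPF3B was lower by −0.61 ± 0.13 (edgeR adjusted p = 0.00156), UPF2 was lower by −0.53 ± 0.094 (adjusted p = 0.000366) and SMG8 was higher by 0.38 ± 0.10 (adjusted p = 0.00908).

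**Figure D3:**
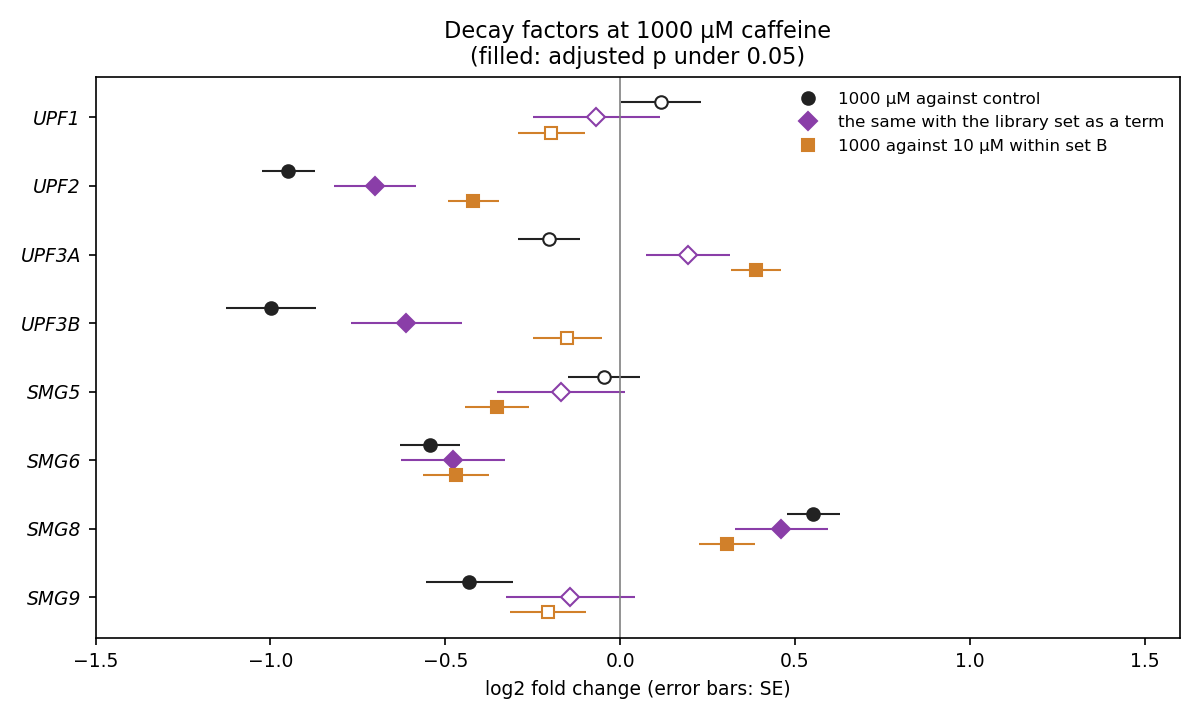
Log2 fold changes of the 8 factors (horizontal axis, bars are SE) for 1000 µM against control, the same with the library set as a term, and 1000 against 10 µM within set B, with filled symbols for an adjusted p under 0.05. UPF2, SMG6 and SMG8 are called in all 3, UPF3B in both comparisons with control, and UPF3A lies at −0.20, 0.19 and 0.39.

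Between 1000 and 100 µM 2 of 8 were called, against 44% of all features: SMG6 was lower by −0.27 ± 0.086 (edgeR adjusted p = 0.015) and UPF3A was higher by 0.23 ± 0.089 (adjusted p = 0.0416). Leaving out 100 µM replicate 2 ended both calls. UPF3B, at 0.28 ± 0.13 (edgeR adjusted p = 0.0928), was called with the set as a term, at 0.37 (adjusted p = 0.00372). Within set B this dose step rests on a single 100 µM library, whose spread is taken from the other groups, and 5 of 8 factors were called, against 43.2% of all features: UPF3A and UPF3B higher, and UPF1, SMG5 and SMG6 lower at 1000 µM. UPF1 differed there by −0.48 (edgeR adjusted p = 0.00438) and SMG5 by −0.48 (adjusted p = 0.00326). Within set C, with 2 libraries at 100 µM and 1 at 1000 µM, 0 of the 8 were called, against 26.4% of all features. The test of the difference between the sets in this dose step called 0 of 8 factors (0.0947% of all features), with SMG5 at −0.54 (edgeR adjusted p = 0.151). Over all doses jointly 6 of 8 were called, against 73.6% of all features, with UPF1 and SMG5 not called. With the set as a term 5 of 8 were, against 59.8%, SMG9 no longer among them (edgeR adjusted p = 0.216).

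Separation from the controls, where no library of a dose overlaps the control range, was seen for 2 of 8 factors at 0.01 µM, 3 at 0.1 µM and 2 at 1 µM, against 23.1%, 19.2% and 17.3% of all features. At 10 µM it was 6 of 8, against 39.8% of all features, and at 100 µM 6 of 8 against 51.1%. At 1000 µM it was 5 of 8 against 56.6%, with SMG8 above and UPF2, UPF3A, UPF3B and SMG6 below. UPF3A was thus separated but not called at 1000 µM, and SMG9 was called but not separated. UPF2 was below the controls at each of the 6 doses.

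Per kilobase of the principal GENCODE 29 transcript, control levels ranged from 45.6 CPM per kb for UPF3A to 6.72 for SMG8. SMG5 followed UPF3A at 36.8 ± 5.51 (SD, n = 3), and then UPF2 at 26.3 ± 2.03, UPF1 at 19.7 ± 3.19, UPF3B at 19.3 ± 2.58, SMG9 at 9.55 ± 1.48 and SMG6 at 6.79 ± 0.842. UPF1 and UPF3B differ by less than their spread, as do SMG6 and SMG8. At 1000 µM the level of UPF2 was 13.6 CPM per kb and that of UPF3B 9.66, while SMG8 had come to 9.85 and SMG6 to 4.66, so that SMG8 stood above SMG6 in every library. The order depends on the length used. With the union of annotated exons, UPF3A stood at 18.9 CPM per kb in control, below SMG5 at 31.6 and UPF2 at 24.8, and SMG8 at 6.22 already stood above SMG6 at 3.83.

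Long 3′ UTRs and exon junctions after the stop codon are known features of decay targets. The 3′ UTR of the principal transcript was 3604 bases in SMG9, 1719 in UPF1, 1649 in SMG6, 1363 in SMG5, 1276 in UPF2, 900 in UPF3A, 856 in UPF3B and 237 in SMG8, beside a median of 1101 over 12848 tested protein-coding genes. SMG8 had the shortest of the 8 and UPF3B the next shortest. No principal transcript of the 8 held a junction more than 50 bases after its stop codon. GENCODE 29 lists 1 transcript of the decay type for each of SMG8 and SMG9 and 0 for the other six, while 42.7% of the tested protein-coding genes have at least 1. Counts per gene do not show which transcript was used.

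Across the 21 libraries the log2 CPM of UPF2 and UPF3B ran together, with a Pearson r of 0.923, and 0.692 after the mean of each library set was taken out. UPF2 and SMG8 ran opposite, at −0.936 and −0.694. UPF1 and SMG5 ran together at 0.771 and, within sets, 0.899. UPF3A and UPF3B had r = 0.788 over all libraries and 0.106 within sets, and UPF3A against SMG6 went from 0.252 to −0.866. These libraries share doses, sets and scaling, and the values are descriptions. Of 10616 genes the most like UPF2 was UBQLN1, at 0.989 over the 21 libraries and 0.954 within sets. THAP1 was most like UPF3B (0.978 and 0.813) and CCDC43 most like UPF3A (0.937 and 0.791). EDC4 was most like SMG6 (0.978 and 0.948), RBBP9 most like SMG8 (0.981 and 0.922), GPR108 most like SMG9 (0.982 and 0.923) and MMS19 most like SMG5 (0.911 and 0.924).

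The rest of the pathway is described at 1000 µM, where the background is 57.6% of features called (28.5% higher and 29.1% lower), or 18.2% higher and 19.8% lower with the set as a term. SMG1, the kinase that SMG8 and SMG9 bind, rose from 219, 172 and 214 CPM in control to 524, 539 and 335 CPM. Its log2 fold change was 1.21 ± 0.19 (edgeR adjusted p = 2.22e-05) and 0.97 with the set as a term (adjusted p = 0.0092), the set C library being the lowest of the 3 treated ones. SMG1 has near-identical pseudogene copies, so its counts are uncertain. Of 7 exon junction complex genes 2 rose and 1 fell (2 and 0 with the set term, of which only CASC3 is in both), and 5 were called without the set C libraries, against 60% of all features in that fit. With each library left out in turn 2 to 5 of the 7 were called, a range whose background shares were not computed. CASC3, a core subunit, rose from 61.3 to 86.2 CPM (log2 0.49), and MAGOH, another, from 16.8 to 32.5 CPM (log2 0.96), the latter not called with the set term (edgeR adjusted p = 0.173). RBM8A, a core subunit that the naming rule left out, was at 0.20 (edgeR adjusted p = 0.0507) and was called with the set term, at 0.47 (adjusted p = 0.00647). RNPS1, a peripheral component, was lower by −0.39 and stood at 0.0086 with the set term.

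Of 10 termination and decay genes 3 rose and 3 fell (3 and 1 with the set term), with a median log2 fold change of 0.0998. NBAS, which acts in decay at the endoplasmic reticulum, rose from 26.3 ± 2.88 to 97.4 ± 14.3 CPM (log2 1.89 ± 0.17, edgeR adjusted p = 1.98e-08). XRN1, the exonuclease that degrades the fragment left downstream of an SMG6 cut, rose from 20.1 ± 2.80 to 52.9 ± 12.1 CPM (log2 1.40 ± 0.15). The UPF1-associated helicase MOV10 fell from 70.5 to 39.0 CPM (log2 −0.86), and DHX34, a helicase that binds SMG1 and UPF1, from 38.4 to 26.0 CPM (log2 −0.57). The DHX34 call was lost with the set term (edgeR adjusted p = 0.115). Of 10 related kinases and their assembly factors 6 rose and 1 fell. TRRAP rose from 55.7 to 109 CPM (log2 0.97) and PRKDC, the DNA-dependent kinase, from 194 to 369.9 CPM (log2 0.93), while the chaperone RUVBL2 fell from 82.7 to 59.3 CPM (log2 −0.48). With the set term 3 of the 10 were called, all higher, and RUVBL2 was not (edgeR adjusted p = 0.393).

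Transcripts known as decay targets moved in both directions at 1000 µM. At that dose 28.5% of all features were called higher and 29.1% lower, or 18.2% and 19.8% with the set term. Of 5 tested snoRNA host transcripts, whose short open reading frames make them targets, all 5 were higher (4 with the set term), with a median log2 fold change of 1.51. SNHG1 rose from 51.0, 53.8 and 69.6 CPM to 194, 205 and 227 CPM (log2 1.85 ± 0.11, edgeR adjusted p = 6.48e-11), and SNHG12 from 8.40 to 23.9 CPM (log2 1.51). SNHG15 did not pass the filter. Of 9 stress-response targets 7 were higher and 2 lower (5 and 2 with the set term), with a median of 0.74. ASNS, asparagine synthetase, rose from 89.9 to 427 CPM (log2 2.25) and UPP1, uridine phosphorylase, from 3.08 to 11.6 CPM (log2 1.91), but GADD45B fell from 5.42 to 2.12 CPM (log2 −1.37) and GADD45A from 55.2 to 36.2 CPM (log2 −0.61). At 100 µM 1 of these 9 was higher and 5 were lower, against 23.6% and 22.9% of all features, and 1 and 2 with the set term, against 9.14% and 8.21%. At the same dose 2 of the 5 snoRNA hosts were higher and 0 lower (2 and 0 with the set term), and 4 of the 8 genes with poison exons, described next, were higher and 0 lower (3 and 0). At 1000 µM, of these 8 splicing-factor genes with poison exons, 4 were higher and 1 lower (4 and 0 with the set term), with a median of 0.18. HNRNPDL rose from 177 to 288 CPM (log2 0.70) and SRSF3 from 209.7 to 258 CPM (log2 0.30), and SRSF2 fell from 181 to 148 CPM (log2 −0.30). The calls of SRSF3 and SRSF2 were lost with the set term (edgeR adjusted p = 0.123 and 0.139). ASNS and several other stress targets also respond to amino acid and endoplasmic reticulum stress, and the part of decay in any of these changes was not tested.

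**Figure D4:**
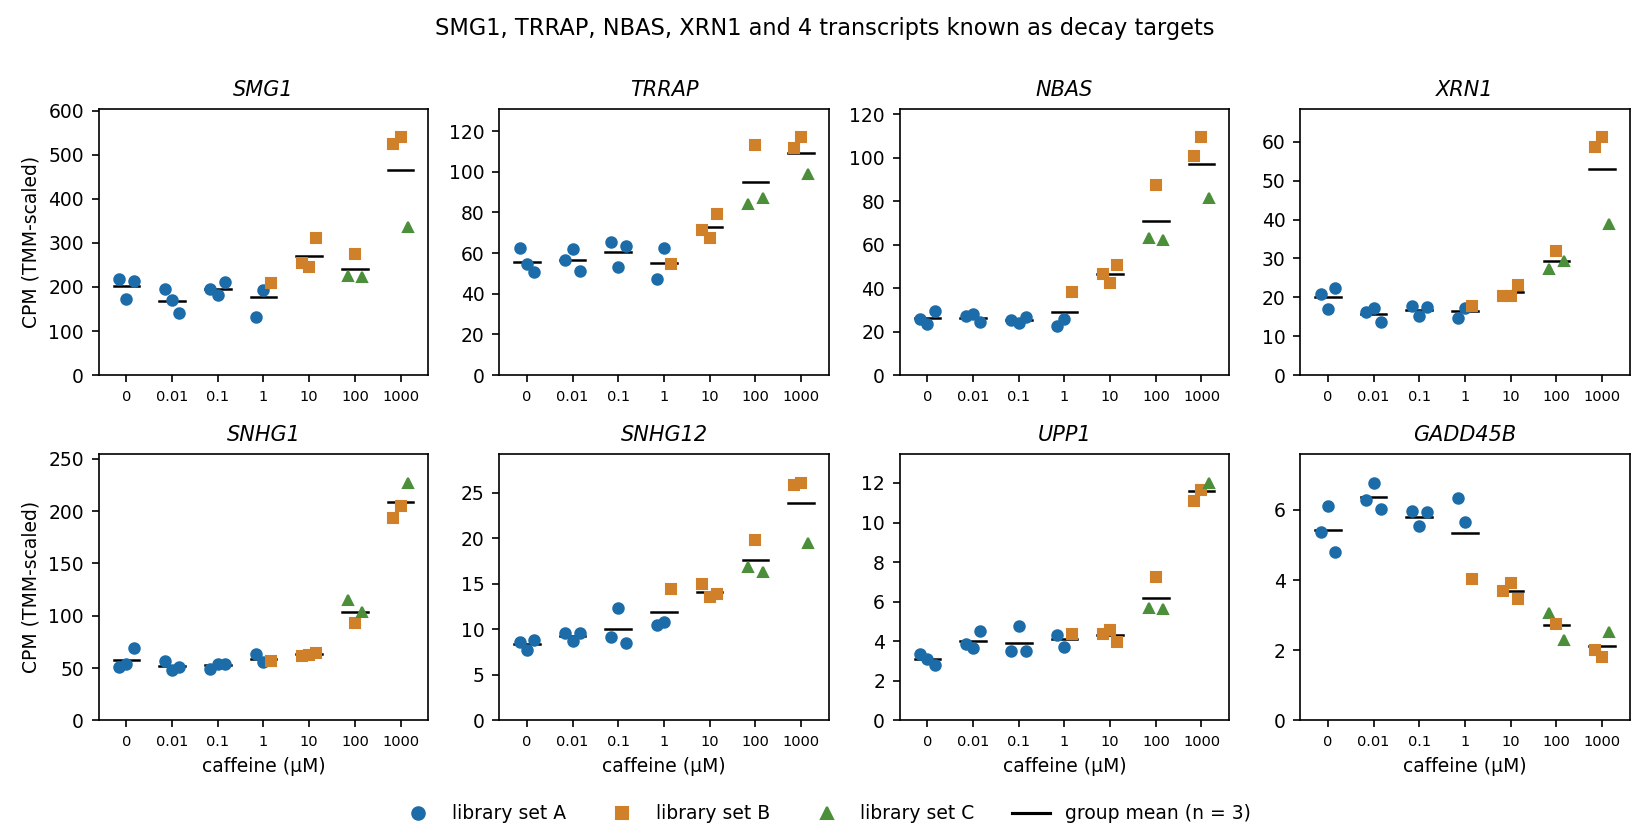
CPM of SMG1, TRRAP, NBAS, XRN1 and the decay targets SNHG1, SNHG12, UPP1 and GADD45B (vertical axes, starting at 0) against caffeine dose in µM, 1 point per library by library set, with lines at the group means of 3. SNHG1 stays near control up to 10 µM and reaches 194 to 227 CPM at 1000 µM, while GADD45B falls from 5.42 to 2.12 CPM.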

How the data were processed

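Raw read counts per gene, whole numbers without normalization, were deposited for 21 libraries of poly(dT)-purified RNA, per the labels' protocols. HISAT2, DESeq2 and the build GRCh38 are named in the submitters' processing notes, without versions. The counter, annotation release, use of strand and read filters are not given in the sources used here, so reads shared by paralogs or overlapping genes have an uncertain place. The table's other 21 per-sample columns were left out.

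The deposited counts were filtered with filterByExpr, scaled by TMM and fitted in 1 edgeR 4.0.16 quasi-likelihood model (R 4.3.3) with a mean per group. SE is the log2 fold change over the square root of F. Log2 CPM used a prior count of 2. Tests were 2-sided, with Benjamini-Hochberg adjustment over the features tested. Library sets came from average-linkage clustering of 13 mitochondrial messages (centred log2 counts), with the number of sets at the highest silhouette. A further edgeR fit with a mean per group and set gave the values within sets. Fits were also run on simulated data, with the outcome not reported here. The alternatives were DESeq2 1.42.0 or its size factors, limma-voom 3.58.1, other filters, only the 2 groups compared, a replicate block, linear dose in place of dose rank for the slope, the library set as a term and each library left out.

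The labels call the replicates biological but do not say more, so p-values measure the spread between these libraries, which may be partly technical. No pair of replicates agreed within counting noise (chi-square per gene at least 3.59 over 21 pairs). Counting intervals were not needed, since replicates give the error. The factors and gene lists were chosen with earlier results of these data known. SMG1 was always named, as were, per list, up to 2 genes called in each direction at 1000 µM with the smallest p. Likeness was Pearson's r over the 21 libraries among genes of sufficient level. Some genes that these rules select are not reported here. GENCODE 29 gave loci and transcripts; the release the authors used may be another.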

Additional observations from a re-analysis of the deposited data

How the results depend on the processing

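Most called fold changes of the factors and named list genes kept their direction and call. Counted per gene, comparison and alternative, 439 did so over the alternatives other than leaving out a library, with 33 no longer called and 2 reversed. With a library left out 1094 did so, with 40 no longer called. Fold changes not called to begin with were left out of this tally, so it cannot show calls gained under an alternative. The library set term left called factors numbering 0 at 10 µM, 3 at 100 µM and 1 for the slope, the slope of UPF3A reversed to 0.0305 and RNPS1 at 1000 µM reversed to 0.0086. At 1 µM 1 factor was called with DESeq2 (2.28% of all features), with a mean of at least 5 CPM (0.513%), and without the set C libraries (0.925%), an alternative chosen after seeing the data. Between 1000 and 100 µM 1 was called with no filter (19.7% of all features) and with only the 2 groups compared (33.1%). Within set B 8 were called with only the 2 groups compared, against 69.1% of all features in that fit. The cause was not tested. For the fits that drop a single library, the shares of all features called were not computed. The ranges that follow therefore have no background to be set against. With each library left out in turn, the factors called were, at 0.01 and at 0.1 µM 0 to 0, then 0 to 1 for 1 µM, 3 to 5 for 10 µM, between 6 and 7 for 100 µM, and 5 or 6 for 1000 µM; they numbered 0 to 3 between 1000 and 100 µM, 4 to 5 between 1000 and 10 µM, 5 to 7 within set B, and 6 to 6 for the slope and jointly.

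Replicate numbers did not pair the libraries: mean correlations of same-numbered deviations ran from −0.108 to 0.152, and in 0 of 21 pairs of groups was every one over 0.1. With the replicate number as a block, 0, 0, 0, 3, 7 and 5 factors were called at the 6 doses in rising order, 2 between 1000 and 100 µM, 4 between 1000 and 10 µM, 6 jointly, 6 for the slope and 6 within set B. The block fit called 12.7%, 45.1% and 56.6% of all features at 10, 100 and 1000 µM, 42.7% between 1000 and 100 µM, 51% between 1000 and 10 µM, 71.7% jointly, 53.3% for the slope and 59.1% within set B. The lost calls were SMG8 at 10 µM and SMG5 between 1000 and 10 µM. Only 3 libraries per group, and no control outside set A, limit what these data can show.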
